A study of Bos taurus with 12 samples.

Results

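FOXO transcription factors and a group of genes that they switch on during fasting were examined in the bovine mammary gland (MG). The set of 10 genes held the factors FOXO1, FOXO3 and FOXO4 and the target genes TXNIP, SESN1, SESN3, DDIT4, BNIP3, GABARAPL1 and CCNG2. A probe was assigned to a gene when its RefSeq accession, without version, belonged to that gene in the bovine RefSeq table. This rule found 16 of the 43653 probes on the array and 7 of the 12639 genes that could be named. FOXO1, SESN3 and CCNG2 matched no probe and were not analysed here. The rule used no measured value.

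FOXO proteins are regulated mainly after translation. When insulin is high, AKT phosphorylates them and 14-3-3 proteins hold them in the cytoplasm, and when insulin and nutrients are scarce they enter the nucleus and activate genes for fuel sparing, autophagy, growth restraint and cell cycle arrest. The mRNA of a FOXO factor therefore does not report its activity. In the lactating MG, insulin and the mTORC1 kinase complex, which several of these targets restrain, are known to act on milk protein synthesis.

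The cows were multiparous Holsteins in early lactation, at 24 ± 3 days in milk, and were allotted to a control diet (CONT, n = 6) or to a feed restriction (REST, n = 6). Over 4 days, 48% of the dry matter fed to REST cows was barley straw. Every cow of both groups received 50 µg of lipopolysaccharide (LPS), a bacterial cell wall component that provokes acute inflammation, into the MG on day 3, and the gland was biopsied 24 h later. Biopsies without LPS formed no group, so that diet could be compared only in the inflamed gland. RNA of 1 cow was hybridized to each one-color array, and a biopsy mixes secretory, stromal, vascular and immune cells. Fewer cells of a type and less RNA per cell cannot be told apart in such samples.

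Levels are given as the log2 intensity of a probe minus the 75th percentile of its array, so that 0 is the level of a probe brighter than 75% of the others. Differences are given as log2 fold changes (log2 FC), REST minus CONT, with the standard error (SE) of limma. The 75th percentile was an intensity of 577 to 1184 on the CONT arrays and of 387 to 1082 on the REST arrays. Well above background were 57.6 to 76.0% of the probes in CONT and 63.2 to 78.1% in REST, as judged by the image analysis software. The 12 arrays lay on 3 slides, with 3 CONT and 1 REST on slide 1, 1 CONT and 3 REST on slide 2, and 2 of each on slide 3, and the negative control spots were brighter on slide 1 (median raw signals of 65 to 75) than on the other slides (45 to 48). Of the markers of secretory epithelium, 9 matched, caseins and LALBA among them, and each had a clear signal (well above background) on all 12 arrays. No probe on the array passed an adjusted p of 0.05 (0% of 43653; lowest limma adjusted p 0.777, Benjamini-Hochberg), while 1143 had an unadjusted p below 0.05, 761 of them higher in REST.

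All 7 measured genes were expressed in the MG, and none differed between REST and CONT beyond the spread between cows. The mean difference lay between log2 FC -0.073 for FOXO4 and 0.27 for TXNIP. The brightest probe of each gene was well above background on all 12 arrays, as were 13 of the 16 probes. At an unadjusted limma p below 0.05 there were 0 of the 7 genes and 0 of the 16 probes, against 2.64% of all named genes, 1.63% higher and 1.01% lower in REST. With slide as a block a FOXO4 probe that was at background on all 12 arrays had an unadjusted limma p of 0.0451. REST and CONT overlapped for each of the 7 genes, as they did for nearly all named genes (0.15% did not overlap). The adjusted p was 1.00 for each of them (limma, Benjamini-Hochberg over all probes). These p-values do not show that the groups were alike, and the confidence intervals below give the differences that the 6 against 6 cows leave possible.

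**Figure D1:**
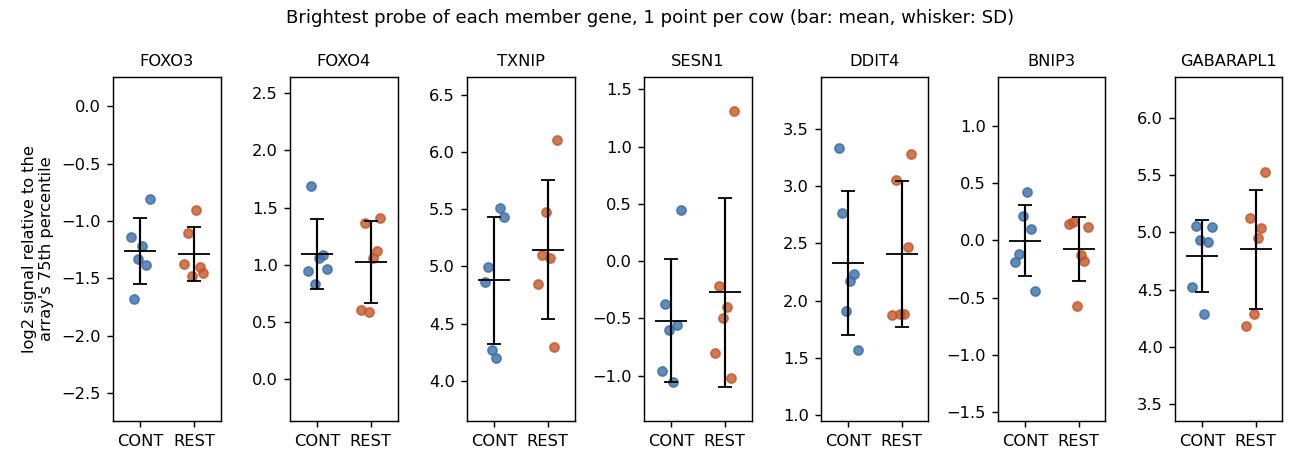
Log2 signal of the brightest probe of each gene, relative to the 75th percentile of the array, with 1 point per cow, a bar for the mean and a whisker for the SD (6 CONT in blue, 6 REST in orange; each panel spans the same 3 log2 units at a different height). The groups overlap for each gene, and 1 REST cow stands above the others for SESN1, at 1.31.

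FOXO3 (NM_001206083), the factor most often tied to autophagy genes in muscle, had nearly the same mean in both groups. The brightest probe ranged from -1.68 to -0.81 in CONT (median -1.28) and from -1.48 to -0.90 in REST (median -1.39). Each REST cow lay inside the CONT range. This gave a log2 FC of -0.026 (SE 0.17, 95% CI -0.40 to 0.35, exact permutation p = 0.855), an interval of 0.757- to 1.27-fold, and of -0.14 with slide as a block. A dimmer FOXO3 probe, detected above background in 4 CONT and 4 REST cows, gave -0.15 (SE 0.29) and did not follow the brighter one from cow to cow (r = -0.20 over 12 arrays).

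FOXO4 (NM_001101277), a close relative under the same AKT control, ranged from 0.83 to 1.69 in CONT (median 1.01) and from 0.59 to 1.41 in REST (median 1.09). Below every CONT cow lay 2 REST cows, and CONT cow 2 was the highest of all. FOXO4 had a log2 FC of -0.073 (SE 0.20, 95% CI -0.51 to 0.37, exact permutation p = 0.712), or 0.701- to 1.29-fold. Without the 4 arrays of slide 1 the value was 0.19, and with normexp background correction it was 0.031, so that the sign of this small difference was not fixed. A second FOXO4 probe was at background in all 12 cows and is given no fold change.

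TXNIP (NM_001101875) had the highest mean difference in REST. It encodes an arrestin-like protein that binds thioredoxin and lowers glucose uptake by removing glucose transporters from the membrane, and it is induced by glucose as well as by FOXO factors. The level ranged from 4.20 to 5.51 in CONT (median 4.93) and from 4.30 to 6.10 in REST (median 5.08). REST cow 6 was above all CONT cows, and 4 of 6 REST cows were above the CONT mean. TXNIP had a log2 FC of 0.27 (SE 0.32, 95% CI -0.42 to 0.96, exact permutation p = 0.422), or 0.747- to 1.95-fold.

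The other TXNIP probes gave larger differences in the same direction, which also did not pass. The probe of middle brightness gave 0.34 (SE 0.24, exact permutation p = 0.188), with 4 of the 6 REST cows above every CONT cow. The dimmest gave 0.48 (SE 0.34, exact permutation p = 0.214), with no REST cow above every CONT cow. The 3 probes followed each other closely over the 12 arrays, with r from 0.81 to 0.90. The difference of the brightest probe kept its sign with each cow left out (0.079 without REST cow 6 to 0.44 without REST cow 5).

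SESN1 and DDIT4 encode brakes on the growth kinase complex mTORC1. SESN1 (NM_001101174), a stress-induced protein through which amino acid scarcity and p53 restrain mTORC1, ranged from -1.06 to 0.45 in CONT (median -0.58) and from -1.02 to 1.31 in REST (median -0.45). REST cow 6 alone exceeded the CONT cows. The log2 FC was 0.25 (SE 0.37, 95% CI -0.56 to 1.06, exact permutation p = 0.576), or 0.676- to 2.08-fold. Without REST cow 6 this value was -0.068. The dimmer SESN1 probe, detected in 5 CONT and 5 REST cows, gave 0.43 (SE 0.30, exact permutation p = 0.201) and followed the brighter one (r = 0.87).

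DDIT4 (NM_001075922), also named REDD1, activates the TSC complex against mTORC1 and responds to hypoxia and glucocorticoids as well as to FOXO factors. It ranged from 1.57 to 3.33 in CONT (median 2.20) and from 1.87 to 3.28 in REST (median 2.17). The cows spread widely within both groups, with an SD of 0.63 in CONT and 0.64 in REST, and the medians were nearly equal. Its log2 FC was 0.077 (SE 0.34, 95% CI -0.67 to 0.82, exact permutation p = 0.866), or 0.630- to 1.77-fold. It was -0.077 with slide as a block and 0.24 without slide 1. The second probe gave 0.091 (SE 0.31) and tracked the first over the cows (r = 0.98). Of all named genes, 72.0% had a larger absolute log2 FC than DDIT4.

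The autophagy targets BNIP3 and GABARAPL1 differed little in their group means. BNIP3 (NM_001076366) encodes a mitochondrial receptor that marks mitochondria for autophagy and is induced by hypoxia. It ranged from -0.44 to 0.42 in CONT (median -0.011) and from -0.57 to 0.16 in REST (median -0.0065). No REST cow exceeded the CONT range, and REST cow 3 lay below it. The log2 FC was -0.073 (SE 0.19, 95% CI -0.48 to 0.33, exact permutation p = 0.667), or 0.718- to 1.26-fold, and it was -0.00013 with slide as a block and 0.020 without slide 1. The second probe gave -0.12 (SE 0.24, r = 0.82 with the first).

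GABARAPL1 (NM_001033616), an ATG8-type protein that is attached to the growing autophagosome membrane, ranged from 4.29 to 5.06 in CONT (median 4.92) and from 4.18 to 5.53 in REST (median 5.0). REST cows were more spread than CONT cows, with 2 above and 2 below all of them (SD 0.52 against 0.31). The log2 FC was 0.059 (SE 0.25, 95% CI -0.47 to 0.59, exact permutation p = 0.838), or 0.720- to 1.51-fold. It was -0.049 with slide as a block and 0.15 without slide 1. The other probes gave 0.012 (SE 0.20) and 0.10 (SE 0.22), and the 3 probes were correlated with r from 0.66 to 0.95.

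**Figure D2:**
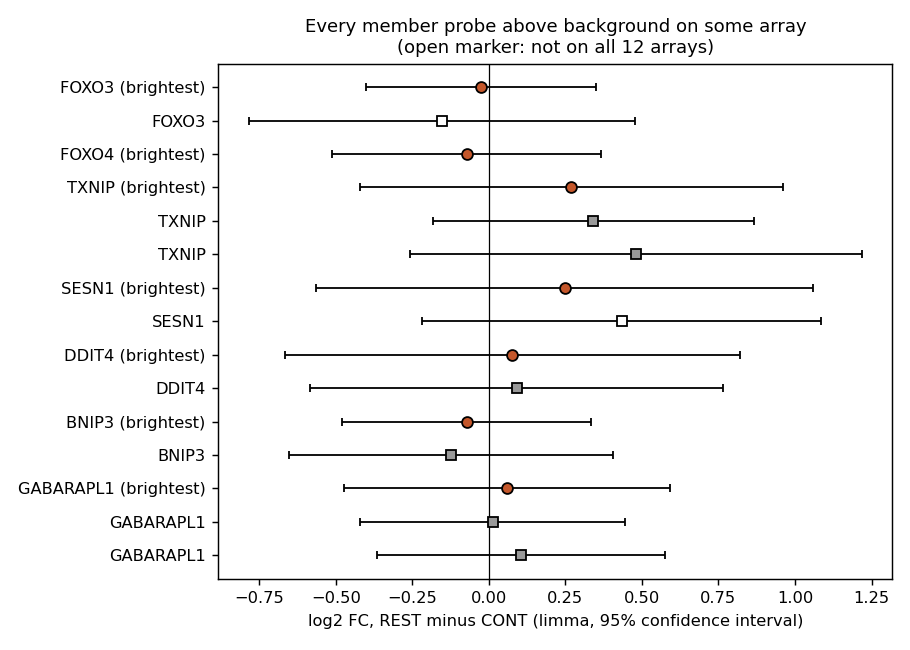
Log2 FC (REST minus CONT) with the 95% confidence interval of limma for the 15 member probes that were well above background on at least 1 array; circles are the brightest probe of each gene and open markers are probes not above background on all 12 arrays. Each interval includes 0, and the values of all TXNIP, SESN1, DDIT4 and GABARAPL1 probes lie above 0 and those of FOXO3, FOXO4 and BNIP3 below.

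The difference between the diets was also computed within each slide, without a test. On slide 3, which held 2 cows of each group, TXNIP was 0.94 and DDIT4 0.84 log2 units higher in REST. TXNIP differed by -0.060 on slide 1 and by -0.042 on slide 2, and DDIT4 by -0.51 and -0.86. The slides 1 and 2 each held 1 cow of a group, so that these values rest on single cows. FOXO4 differed by -0.67, 0.23 and 0.10 on slides 1, 2 and 3, and SESN1 by -0.14, 0.42 and 0.48. FOXO3 differed by 0.056, 0.0041 and -0.40, BNIP3 by 0.0092, 0.14 and -0.11, and GABARAPL1 by -0.57, 0.51 and -0.079. None of these brightest probes had the same sign on all 3 slides, whereas the dimmer SESN1 probe was higher in REST on each (0.20, 0.26 and 0.44).

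Counted together, 4 of the 7 genes had a higher mean in REST against 43.5% of all named genes, a count that was 2 with slide as a block, 2 without REST cow 6 and 7 without REST cow 3. The median log2 FC over the 7 genes was 0.059, and that of all named genes was -0.034. With slide as a block the order turned, with -0.049 for the 7 genes and 0.012 for all named genes. Without the 4 arrays of slide 1 the values were 0.19 and 0.037, and 6 of the 7 genes were higher in REST. With each cow left out the median of the 7 genes ran from -0.076 (without REST cow 6) to 0.18 (without REST cow 1). Of the 15 probes above background on at least 1 array, 10 were higher in REST, and 7 with slide as a block. REST cow 6 was the highest of the REST cows for FOXO4, TXNIP, SESN1, DDIT4 and GABARAPL1.

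**Figure D3:**
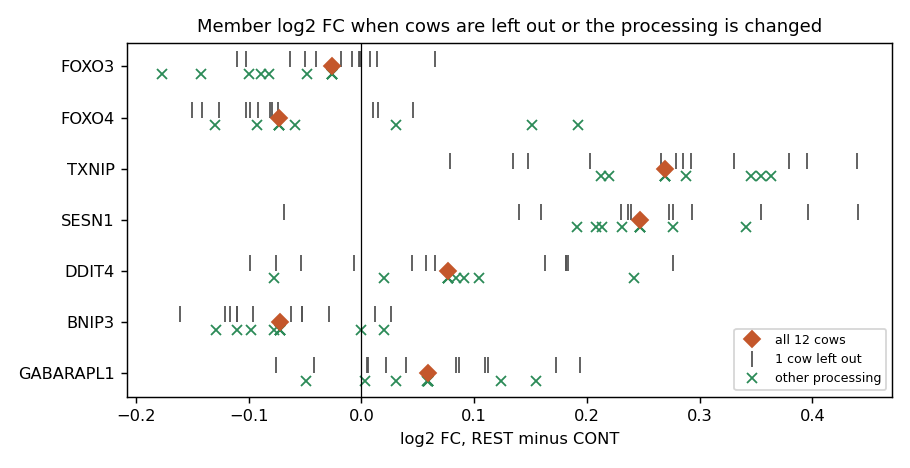
Log2 FC (REST minus CONT) of the brightest probe of each gene with all 12 cows (diamond), with 1 cow left out (bars) and with other processing (crosses). TXNIP stays above 0 in all of them and SESN1 in all but that without REST cow 6; the other genes lie on both sides of 0.

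PDK4, a FOXO target outside the set, had the largest difference of the related genes. It encodes the kinase that shuts pyruvate dehydrogenase and so spares glucose in fasting, and its high value in REST was known beforehand, so that its values are a description and not independent support. PDK4 ranged from 2.36 to 3.58 in CONT (median 2.95) and from 4.08 to 7.0 in REST (median 4.91), with all 6 REST cows above all CONT cows. Its log2 FC was 2.23 (SE 0.46), or 4.70-fold. It exceeded the log2 FC of the 7 genes by 1.96 (TXNIP, SE 0.54) to 2.31 (FOXO4, SE 0.44). The adjusted p of PDK4 was 1.00 as well (limma, Benjamini-Hochberg).

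The list of other FOXO targets, PDK4 included, was near the background in its counts. Of 28 that matched, 12 were higher and 16 lower in REST, with a median of -0.064. PDK4 alone had an unadjusted limma p below 0.05, against 2.64% of all named genes. With slide as a block the median was 0.013. FBXO32, the muscle atrophy ubiquitin ligase, gave 0.28 (SE 0.28). Its value was 0.046 with slide as a block, 0.063 without REST cow 2 and 0.44 without REST cow 1. CAT, the catalase gene, gave 0.13 (SE 0.16; 0.075 without CONT cow 3 to 0.23 without CONT cow 6). SOD2, the mitochondrial superoxide dismutase, had the lowest value, -1.24 (SE 0.67), with REST cows from 1.58 to 6.12 against 5.36 to 6.74 in CONT, and its value was -0.81 with slide as a block and -0.58 without REST cow 2. FBXO32, CAT and SOD2 were chosen after their values were seen.

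Upstream of the FOXO factors, the insulin and energy-sensing kinases also showed no gene at an unadjusted p below 0.05. Of the 12 that matched, 10 were higher in REST, against 43.5% of all named genes (median 0.11, 0.091 with slide as a block). Among those above background on all arrays PRKAA2, a catalytic subunit of the energy sensor AMPK, was highest with all 12 cows and no block, at 0.30 (SE 0.32). Its value was 0.082 with slide as a block, 0.099 without REST cow 2 and 0.45 without REST cow 1. The 14 partners and modifiers divided evenly, with 7 higher and 7 lower (median 0.0073, 0.032 with slide as a block), and PPARGC1A, a coactivator of FOXO and of mitochondrial genes, had the largest value with all 12 cows at 0.58 (SE 0.52), with REST cows from -2.74 to 0.37. Without REST cow 5, the highest, its value was 0.13.

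Among the relatives and pathway partners of the targets, none outside the autophagy and glucocorticoid lists had an unadjusted p below 0.05. Among 12 genes around sestrins and the mTORC1 brake, 5 were higher in REST (median -0.042, -0.024 with slide as a block), and among those above background on all arrays RHEB, the GTPase that activates mTORC1, had the largest difference at -0.26 (SE 0.15). Among 11 genes of the thioredoxin system and the arrestin relatives of TXNIP, 8 were higher, against 43.5% of all named genes (median 0.093, 0.067 with slide as a block). ARRDC3, an arrestin relative of TXNIP, gave 0.37 (SE 0.24; 0.59 without REST cow 2), and 5 of 6 REST cows were above every CONT cow while REST cow 2 was below them all. Among 11 genes of cyclin G and p53, 5 were higher (median -0.063, 0.13 with slide as a block), with ZMAT3, a p53 target, at -0.43 (SE 0.32), or -0.24 with slide as a block and -0.25 without CONT cow 3. Among 14 hypoxia targets, 5 were higher (median -0.11, -0.031 with slide as a block), with SLC2A1, the glucose transporter GLUT1, at -0.43 (SE 0.33), or -0.24 without REST cow 3 and -0.65 without REST cow 5.

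In the autophagy list 14 of 25 genes were higher in REST, against 43.5% of all named genes (median 0.017, -0.027 with slide as a block). SQSTM1 was the 1 gene of the 25 with an unadjusted p below 0.05, where 2.64% of all named genes had one, so that this count was near the background. SQSTM1, the p62 receptor that carries tagged cargo into autophagosomes and binds the ATG8 family, ranged from 1.91 to 3.38 in CONT (median 2.83) and from 3.1 to 3.71 in REST (median 3.38). Its REST cows were less spread than its CONT cows, and 3 of the 6 were above every CONT cow. The log2 FC was 0.69 (SE 0.26, exact permutation p = 0.0303), with an adjusted p of 1.00 (limma, Benjamini-Hochberg). The ATG8 gene MAP1LC3A gave -0.023 (SE 0.20; 0.053 with slide as a block). Its relatives GABARAP (0.15, SE 0.18), GABARAPL2 (0.16, SE 0.19) and MAP1LC3B (0.043, SE 0.18), like it named after their values were seen, did not pass either. They gave 0.099, 0.049 and -0.046 with slide as a block, and ranged with each cow left out from 0.071 (without CONT cow 6) to 0.26 (without REST cow 3), from 0.072 (without REST cow 2) to 0.28 (without REST cow 3) and from -0.034 (without REST cow 2) to 0.15 (without REST cow 3).

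Glucocorticoid targets, listed because DDIT4 is one of them, had the highest median of the 9 related lists at 0.45 (0.34 with slide as a block). Higher in REST were 9 of 11 genes, against 43.5% of all named genes. At an unadjusted limma p below 0.05, 2 of the 11 were higher, against 1.63% of all named genes. The list was not tested as a set. ZBTB16, a zinc finger repressor, was higher by 0.96 (SE 0.41, limma unadjusted p = 0.0384), with 4 of 6 REST cows above every CONT cow. PER1, a clock gene with glucocorticoid response elements, was higher by 0.67 (SE 0.30, limma unadjusted p = 0.0450), with 3 of 6 above. Both had an adjusted p of 1.00 and exact permutation p-values of 0.0541 and 0.0671. With slide as a block the unadjusted limma p was 0.0730 for ZBTB16 and 0.112 for PER1, so that neither stayed below 0.05. DDIT4 itself, at 0.077, was below the median of this list.

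**Figure D4:**
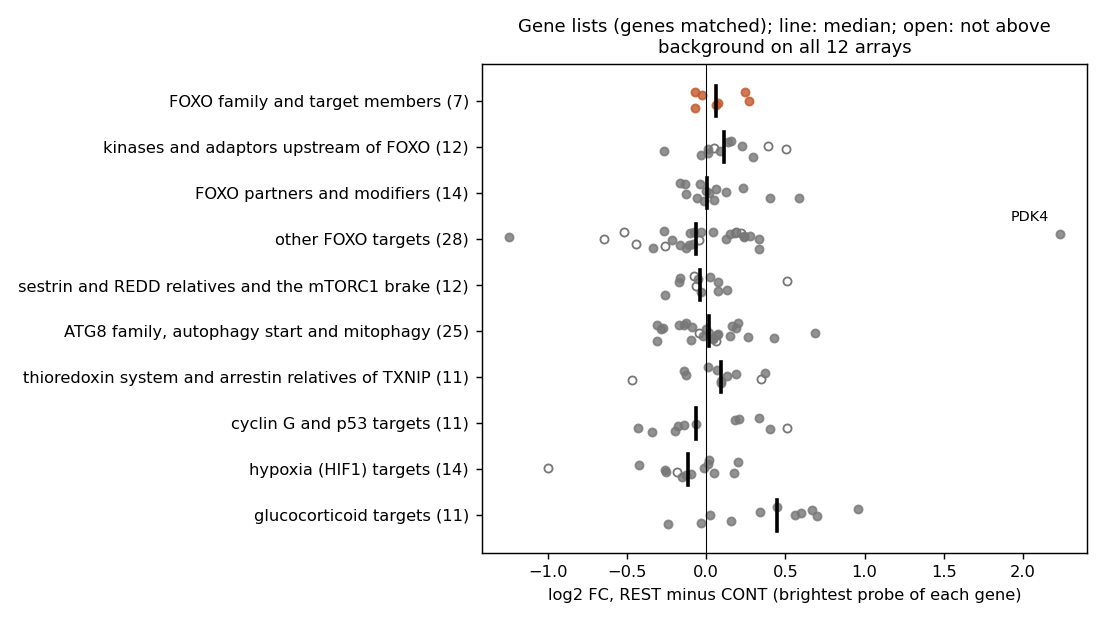
Log2 FC (REST minus CONT) of the brightest probe of each gene in the FOXO set (orange) and in 9 related lists (grey), with a line at the median and open points for genes not above background on all 12 arrays. The FOXO set lies between -0.073 and 0.27, PDK4 stands apart at 2.23, and the glucocorticoid targets have the highest median, 0.45.

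The genes varied among the cows of a group more than between the groups. Of the 21 pairs of genes, with group means removed and 12 cows, none passed a permutation p adjusted over the pairs (Benjamini-Hochberg). The closest pair was TXNIP and SESN1 (r = 0.785, permutation p = 0.00438, adjusted p = 0.092; rho = 0.769, p = 0.00739, adjusted p = 0.0789), and r was 0.592 without the 2 cows farthest from the median and 0.744 with slide means removed. FOXO4 and GABARAPL1 gave r = 0.736 (permutation p = 0.0140, adjusted p = 0.143; rho = 0.790, p = 0.00751, adjusted p = 0.0789), with r = 0.724 without the 2 farthest cows and 0.868 with slide means removed; within REST r was 0.972 and within CONT 0.305, a difference that was not tested. SESN1 and GABARAPL1 gave r = 0.691 (permutation p = 0.020, adjusted p = 0.143; rho = 0.734, p = 0.014, adjusted p = 0.095), with r = 0.536 without the 2 farthest cows. For FOXO3 and the other genes of the set r lay between -0.27 (DDIT4) and 0.11 (SESN1). For FOXO3 and DDIT4 it was -0.56 with slide means removed and 0.22 without the 2 farthest cows.

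The genes whose levels most resembled 2 of the members were sought among 8993 genes above background on all arrays, again with group means removed over 12 cows and without a test. For FOXO3 these were STK25 (r = 0.866, rho = 0.811) and MED15 (r = 0.859, rho = 0.741), a kinase and a Mediator subunit. For TXNIP they were SLC27A1 (r = 0.948, rho = 0.944), a fatty acid transport protein, and CYBRD1 (r = 0.938, rho = 0.944), a ferric reductase. Without the 2 cows farthest from the median of the member, r was 0.913 (STK25), 0.665 (MED15), 0.926 (SLC27A1) and 0.940 (CYBRD1). The log2 FC of these genes were 0.18 (STK25), 0.059 (MED15), 0.033 (SLC27A1) and -0.20 (CYBRD1).

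The cell type markers of the biopsies were set beside the genes, in 84 relations that include PDK4 and were chosen after the values were seen. BNIP3 and the mean of 7 adipocyte markers were related (r = 0.884, permutation p = 3.0e-05, adjusted p = 0.00252), with r = 0.768 without the 2 farthest cows and 0.854 with slide means removed. The rank correlation did not pass (rho = 0.776, permutation p = 0.00497, adjusted p = 0.417). It was the 1 relation of the 84 to pass by Pearson's r. Of the 7 adipocyte markers 3 had a signal above background in all 12 cows, LEP in 5 cows and PLIN1 in 3. The summed level of the adipocyte list was 17.1 in CONT cow 6, 64.6 to 177 in the other 5 CONT cows and 114 to 257 in REST, in multiples of the 75th percentile. CONT cow 6 also had the lowest BNIP3 level of the CONT cows, and without it r was 0.869. The part of adipocytes in the BNIP3 level was not tested.

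**Figure D5:**
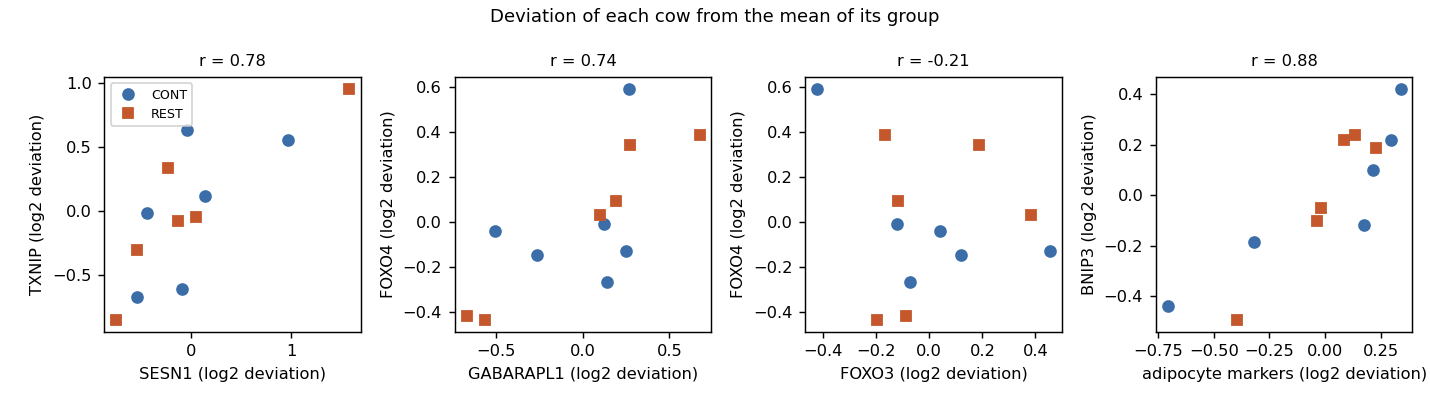
Deviation of each cow from the mean of its group, in log2 units, for 3 pairs of genes and for BNIP3 against the mean of 7 adipocyte markers (CONT circles, REST squares, 12 cows). Pearson's r is 0.785 for TXNIP and SESN1, 0.736 for FOXO4 and GABARAPL1, -0.21 for FOXO3 and FOXO4, and 0.884 for BNIP3 and the adipocyte markers.

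No marker of another cell type passed the adjusted p of 0.05 (limma, Benjamini-Hochberg) either. The counts below stand against 43.5% of all named genes higher in REST. At an unadjusted limma p below 0.05, 1.63% of all named genes were higher and 1.01% lower. All 6 endothelial markers were higher in REST (median 0.52), with VWF, the von Willebrand factor of the vessel lining, at an unadjusted p below 0.05 (log2 FC 0.79, 0.50 without CONT cow 6). The summed endothelial level was 2.61 in CONT cow 6, 9.50 to 11.2 in the other 5 CONT cows and 8.87 to 15.1 in REST, and without CONT cow 6 the median log2 FC was 0.10, with 6 of 6 still higher. Of the 6 fibroblast markers 5 were lower (median -0.63), 3 of them, LUM, COL1A2 and COL1A1, at an unadjusted p below 0.05, and their summed level was 49.5 to 66.9 in CONT and 23.0 to 69.4 in REST. With slide as a block the fibroblast median was -0.35, and the unadjusted limma p was 0.0117 for LUM, 0.131 for COL1A2 and 0.185 for COL1A1. Secretory epithelium had 7 of 9 markers higher (median 0.31, 0.14 with slide as a block, 0.073 without CONT cow 6), without any at an unadjusted p below 0.05. Of the 7 adipocyte markers 6 were higher (median 0.37, 0.36 with slide as a block). The T cell, B cell and skeletal muscle lists each held 1 marker higher in REST at an unadjusted p below 0.05, CD3D (no longer so with slide as a block), MS4A1 (above background in 0 CONT and 4 REST cows) and TNNT3 (in 4 CONT and 6 REST cows). The medians of these lists were -0.064, 0.038 and -0.069, with slide as a block 0.090, -0.022 and 0.12, and without CONT cow 6 0.067, -0.12 and -0.23, so that none kept its sign. The myoepithelium, neutrophil, macrophage and erythrocyte lists held no marker at that level without the block. With slide as a block the myoepithelial marker OXTR had an unadjusted limma p of 0.00825 (log2 FC -0.74, against -0.50 without the block). The medians of the myoepithelium, neutrophil, macrophage and erythrocyte lists were -0.11, -0.13, 0.22 and -0.17. With slide as a block they were -0.069, -0.097, 0.31 and 0.075, and without CONT cow 6 -0.019, -0.16, 0.059 and -0.31. Neither these markers nor the slide were tested for their part in the values of the FOXO set.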

How the data were processed

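Array hybridization of MG biopsies from 12 cows (6 CONT, 6 REST) was analysed. The deposited values are spot intensities that the authors obtained with Agilent Feature Extraction (version 11.0.1.1 in the file headers) once the software had subtracted background. Arrays were not scaled to each other in these values. The deposited matrix of intensity values was identical to them (largest difference 0) and served as an alternative.

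Control spots were dropped and spots marked as outliers left out. The log2 intensities, less the 75th percentile of the array, were averaged per probe. Of 43653 probes, 205 had a missing value and 7052 were at background throughout. A total of 26832 probes were named by accession. The brightest probe by mean signal stood for a gene. The array annotation and the RefSeq table use different assemblies, so positions are not given. The diets were compared with limma 3.58.1 in R 4.3.3 (lmFit, eBayes, two-sided, no covariate) over all probes with Benjamini-Hochberg adjustment and a threshold of 0.05. Single values were also compared with exact permutation tests (two-sided, smallest p 0.00216). Correlations used 100000 permutations. Intervals are 95% intervals. Procedures were tested on simulated data. Cows are the replicates, 1 array each, and the number of arrays limits the precision.

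Members and lists were chosen with earlier results of these data known. Named are the members, the list genes with an unadjusted p below 0.05 (or else the largest difference above background), the 2 most similar genes of FOXO3 and TXNIP (FOXO1 matched no probe), and genes said to be named after their values were seen. Alternatives were Westfall-Young adjustment with 100 splits, quantile normalization, scaling to the array median, normexp (offset 50), the authors' matrix, a filter on dim probes, an intensity trend, outlier spots retained, slide as a block, the mean over probes and leaving out each cow. Leaving out slide 1, CONT cow 6 for the markers, and each cow for the named list genes was chosen after seeing the data. Figures were drawn with matplotlib 3.10.9.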

Additional observations from a re-analysis of the deposited data

Results flagged for a closer look

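Values far from the rest of their group of 6 cows, by Dixon's criterion, were found in 3 of 52 groups examined, where chance gives 2.6. FOXO4 was 1.69 in CONT cow 2, and the next CONT cow was at 1.09. SESN1 was 1.31 in REST cow 6, and the next REST cow was at -0.22. ARRDC3 was -3.05 in REST cow 2, and the next REST cow was at -2.02.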

How the results depend on the processing

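No probe passed an adjusted p of 0.05 in any of 22 alternatives, and each of the 7 genes had a Westfall-Young p of 1. The log2 FC of the genes kept its sign in 133 alternative values and changed it in 21. The 133 include values that could not change sign. The authors' matrix, the filter on dim probes, the retained outlier spots and the intensity trend left the log2 FC of each gene as it was. FOXO4 turned to 0.031 with normexp, 0.15 with the mean over probes (the dim probe included) and 0.19 without slide 1. DDIT4 turned to -0.077 and GABARAPL1 to -0.049 with slide as a block, but they were 0.24 and 0.15 without slide 1. BNIP3 turned to 0.020 without slide 1. With slide as a block 2 of the 7 genes were higher in REST, and without slide 1 there were 6 of the 7. The cause was not tested. With each cow left out the ranges were -0.11 to 0.066 for FOXO3, -0.15 to 0.045 for FOXO4, 0.079 to 0.44 for TXNIP, -0.068 to 0.44 for SESN1, -0.098 to 0.28 for DDIT4, -0.16 to 0.027 for BNIP3 and -0.076 to 0.19 for GABARAPL1. The number of the 7 genes higher in REST then ran from 2 (without REST cow 6) to 7 (without REST cow 3), of the sestrin and mTORC1 list from 3 to 7, of the thioredoxin list from 5 to 8 and of the hypoxia list from 2 to 7. Probes with an unadjusted p below 0.05 numbered 1143, but 377 with normexp and 1739 without REST cow 6. The share of named genes higher in REST was 43.5%, against 33.6% scaled to the array median, 52.4% with slide as a block and 54.8% without slide 1. No paired analysis was possible because the labels give no number that pairs cows of the 2 groups.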
